A study of Mus musculus with 10 samples.

Results

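Cultured mouse myeloid progenitors that had spent 24 h without estradiol (E2) and then 96 h with it were compared with cells that had never lost E2. The comparison rested on 4 of the 10 libraries of the series, 2 from the 24 h group and 2 untreated, and on 13004 of 26227 genes, those with RPKM (reads scaled to transcript length and to the reads of the library) of at least 1 in at least 2 of the 10 libraries. All libraries came from ER-Hoxa9-Lys-GFP cells, a line from the C57BL/6 strain grown in RPMI with serum, antibiotics and medium conditioned with stem cell factor. Every group, untreated cells included, therefore carried the ER-Hoxa9 fusion and, going by the line's name, a Lys-GFP reporter (lysozyme and green fluorescent protein). E2 was removed with 3 washes in PBS and a change to medium without it, and was kept throughout in the untreated group. The other 6 libraries, which entered the fit to share its estimate of the spread, were from cells kept 40 h without and 80 h with E2, 72 h without and 48 h with E2, and 120 h without E2. The titles give the withdrawal times, and the times of the add-back are those of the annotation supplied with the series here. The labels do not say whether the 2 libraries of a group came from separate cultures, so p-values measure the spread between these libraries, which may be technical. They also do not say whether the line is 1 clone, and results from 1 line hold for that line.

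Hoxa9 is a homeodomain transcription factor that, with its partners Meis1 and Pbx, holds early blood progenitors in a dividing, undifferentiated state, and it is often overexpressed in acute myeloid leukaemia. Fused to the hormone-binding domain of the estrogen receptor, it is active while E2 is present. When E2 is taken away, such progenitors leave the cell cycle over days and become neutrophil-like or monocyte-like cells. Genes of primary granules, made at the promyelocyte stage, come on before those of secondary granules and of mature neutrophils. The series asks when this step can no longer be undone by giving E2 back, and the 24 h group is the shortest of the 3 withdrawals followed by E2 analysed here.

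The values were deposited as RPKM, and the step between low values gave denominators of 173621000 to 204384000 reads per library. In the 4 libraries compared, a single read on a transcript of 2 kb added 0.00245 to 0.00284 RPKM. The 2 untreated libraries differed by a median of 0.0602 on the log2(RPKM + 1) scale over the 13004 genes, and the 2 libraries of the 24 h group by 0.0740. Differences between an untreated and a 24 h library had medians of 0.0679 to 0.0858, close to those within a group. Of the 13004 genes, 16 differed at least 2-fold between the untreated libraries, 11 between the 24 h libraries and 14 to 22 between a library of one group and a library of the other. The 120 h libraries differed from each other most, by a median of 0.248. In untreated replicate 2 a few loci read far lower than in replicate 1: Lars2, a mitochondrial leucyl-tRNA synthetase gene, stood at 637 RPKM in replicate 1 and 141 in replicate 2, and at 641 and 525 in the 24 h libraries.

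With 24 h of withdrawal and 96 h of restored E2, no gene passed the test. limma with Benjamini-Hochberg (BH) adjustment called 0 of 13004 genes (0.0%), and the smallest adjusted p was 0.314. An unadjusted p under 0.05 was reached by 365 genes (2.81%), 75 higher (0.577%) and 290 lower (2.23%), where 650 would be expected at that threshold. limma voom on reads recovered from the RPKM also called 0, with 311 genes at an unadjusted p under 0.05. With quantile normalization the split was 98 higher and 199 lower. Without the 120 h group 798 genes reached this threshold, on the 2 groups alone 1406 and with a weight per library 1548, all above 650. Whether the count lay below or above 650 therefore depended on the fit, so the shortfall is not taken as a result about the 2 groups. In 5715 genes (43.9%) both libraries of one group lay beyond both of the other, 2197 with the 24 h libraries higher (16.9%) and 3518 with them lower (27.1%), and with quantile normalization 2921 and 2876.

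Most genes were measured tightly enough to bound the difference. The log2 fold changes had a median of -0.02, 95.5% of genes lay within 0.25 of 0, and the median standard error (SE) was 0.12. The 95% interval lay inside a 2-fold change in either direction for 12810 genes (98.5%) and inside a 1.5-fold change for 11503 (88.5%). A log2 fold change of at least 1 in either direction was found for 7 genes (0.0538%), 6 higher and 1 lower, against 85 in the 40 h group, 1231 in the 72 h group and 5165 in the 120 h group. Those 3 comparisons share the untreated libraries with this one. All fold changes are on the log2(RPKM + 1) scale, which understates the change of low genes.

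**Figure D1:**
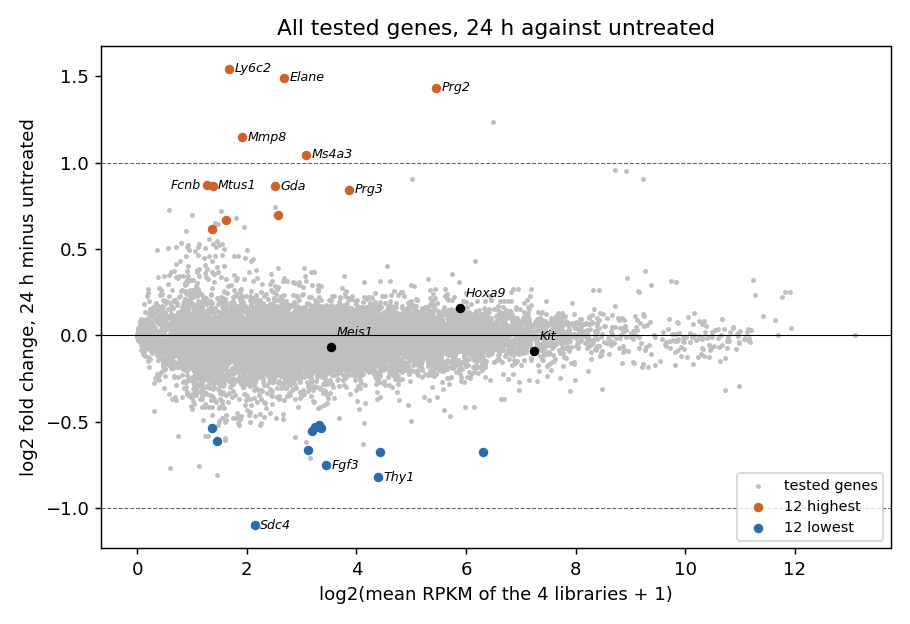
Each of the 13004 tested genes is 1 point, with log2(mean RPKM of the 4 libraries + 1) on the x axis and the log2 fold change of the 24 h group against untreated on the y axis; dashed lines mark a log2 change of 1 in either direction. Nearly all genes lie in a narrow band around 0, with Hoxa9, Meis1 and Kit (black) inside it. The orange points (12 highest) reach 1.54 and the blue points (12 lowest) reach -1.10. Both sets are coding genes without predicted or clone names. Their groups did not overlap and reached a mean RPKM of 2 in one of them.

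The groups overlapped for Hoxa9, Esr1, Meis1 and Lyz2, and both 24 h values of Kit lay below the untreated ones, the nearer of them by less than the rounding of the values given. Hoxa9, whose reads may include those of the fusion, read 50.2 and 59.95 RPKM without withdrawal and 59.5 and 63.4 after it (log2 fold change 0.16, SE 0.16). Esr1, the estrogen receptor gene, whose reads may also include those of the fusion, read 5.87 and 7.19, then 6.90 and 7.54 (0.13, SE 0.15). The values of Hoxa9 and Esr1 may therefore not be independent of each other. For both genes the lower untreated library was the first. Meis1, the homeobox partner of Hoxa9, read 10.6 and 11.2 RPKM with E2 kept and 10.1 and 10.7 in 24 h cells. Kit, the receptor for stem cell factor, read 152 and 158 RPKM, then 140 and 152. Lyz2, the lysozyme gene and a late marker of myeloid cells, stayed at the bottom of the range in both groups, at 0.298 and 0.233 RPKM in untreated cells, against 0.264 and 0.182 in 24 h cells. In the 120 h libraries Lyz2 reached only 2.68 and 4.29 RPKM. Its low 24 h value therefore cannot show whether late genes stayed off. Whether the Lys-GFP reporter bears on the Lyz2 values was not tested. limma's BH adjusted p was 1 for each of these 5 genes.

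The progenitor programme was covered by 3 lists: the Hoxa9 circuit, progenitor receptors and ligands, and other stem and progenitor transcription factors. Of their 45 tested members, none was called, and every 95% interval lay inside a 2-fold change, between -0.86 (Mycn) and 0.69 (Il6ra). The medians were -0.07 for 12 Hoxa9 circuit genes, -0.09 for 17 receptors and ligands and -0.08 for 16 other factors, against -0.02 for all tested genes. Both 24 h libraries lay below both untreated ones in 4, 7 and 8 members of these lists in that order and above them in 0, 2 and 2, while 27.1% of all tested genes lay below and 16.9% above. The values of abundant members lay close together: Cd34, a sialomucin of progenitors, read 869 and 830 RPKM in untreated cells, then 831 and 831 in 24 h cells, and Myb, a factor of progenitor proliferation, read 235 and 244, then 220 and 236. Flt3, a receptor tyrosine kinase of early progenitors, read 257 and 250 RPKM with E2 kept and 232 and 223 in 24 h cells. Its 24 h values lay below both untreated values, and its mean in the 40 h group was 170 RPKM.

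**Figure D2:**
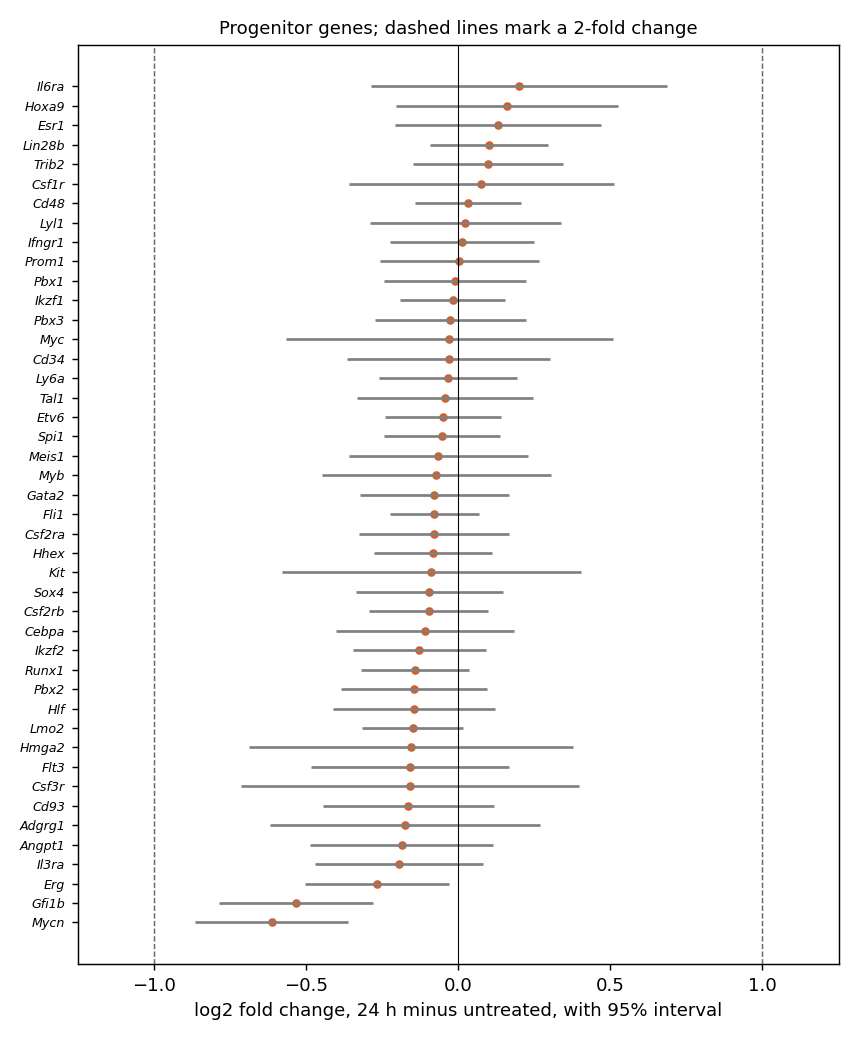
Points give the log2 fold change of 24 h against untreated cells for 44 of the 45 tested genes of the 3 progenitor lists, and lines the 95% interval from limma. All intervals lie between the dashed lines that mark a 2-fold change, from the lower end for Mycn (-0.86) to the upper end for Il6ra (0.69).

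The lowest members of these lists were Mycn and Gfi1b, both of low level. Mycn, a Myc family factor, read 2.15 and 2.49 RPKM in untreated cells, against 0.979 and 1.37 in 24 h cells (log2 fold change -0.61, SE 0.11, adjusted p = 0.497 by limma with BH). Gfi1b, a repressor of the erythroid and megakaryocyte lines, read 2.25 and 1.82, then 0.970 and 1.22 (-0.53). The groups did not overlap for either gene. Their means in the 40 h group were 0.345 and 0.616 RPKM, and in the 72 h group 0.0100 and 0.0705.

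Among the highest genes were members of the granule and monocyte lists, most at low levels. Ly6c2, a surface antigen of inflammatory monocytes, read 0.571 and 0.683 RPKM in untreated cells and 4.05 and 3.45 in the 24 h group (log2 fold change 1.54, SE 0.21, adjusted p = 0.314 by limma with BH), and its mean RPKM was 5.98 times the untreated mean. All 4 transcripts listed for it leaned the same way, between 0.84 and 1.63. Its near-identical neighbour Ly6c1 read 0.093 and 0.034, then 0.483 and 0.519, and since reads can be shared between the pair, each is uncertain as a single gene. Elane, which encodes neutrophil elastase of primary granules, read 1.68 and 3.19 RPKM, then 8.25 and 8.59 (1.49, SE 0.42). Ms4a3, a membrane protein gene of granulocyte-monocyte progenitors, read 4.55 and 4.49, then 10.7 and 10.1 (1.05, SE 0.38). For each of these genes the 24 h libraries lay close together and above both untreated ones. In a bulk sample a few cells with much of an RNA and many cells with a little cannot be told apart, nor can fewer cells of a type and less RNA per cell.

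Mmp8, neutrophil collagenase, read 1.18 and 1.48 RPKM in untreated cells, then 5.04 and 3.39 in 24 h cells (log2 fold change 1.15). Fcnb, a lectin of primary granules, read 0.778 and 0.625, then 1.94 and 2.28 (0.87). Adgre1, which encodes the macrophage antigen F4/80, read 1.16 and 1.59, then 2.88 and 2.66 (0.67). Prg2, the major basic protein of eosinophil granules, was less even, at 12.9 and 36.3 RPKM with E2 kept and 53.6 and 68.5 in 24 h cells (1.44, SE 0.45). Its neighbour and paralog Prg3 read 5.92 and 13.7, then 15.1 and 19.3 (0.84, SE 0.38). Both were among the 16 genes that differed at least 2-fold between the untreated libraries, with replicate 2 higher. Mtus1, a microtubule-associated protein gene (0.87), Gda, guanine deaminase (0.86), Tfec, a transcription factor related to Mitf (0.70), and Igsf6 (0.62) complete the 12 highest coding genes whose groups did not overlap and reached a mean RPKM of 2 in one of them. The rule for these 12 and for the 12 lowest required that the groups not overlap, so their separation is not a finding. The rule also left out genes with predicted or clone names.

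Among the lowest genes were members of the list of secreted, matrix and cytoskeletal proteins and of the lymphoid list. Sdc4, syndecan-4, a heparan sulfate proteoglycan of the cell surface, read 5.05 and 5.02 RPKM in untreated cells, against 1.92 and 1.72 in 24 h cells (log2 fold change -1.10, SE 0.17, adjusted p = 0.443 by limma with BH), so the mean was 36.1% of the untreated mean. Thy1, a glycoprotein of T cells and some progenitors, read 24.99 and 26.7, then 13.6 and 14.7 (-0.82, SE 0.21). Crip1, a small LIM-domain protein, was the most abundant of the 12 lowest, at 95.9 and 96.5 RPKM in untreated cells, then 59.0 and 61.0 in 24 h cells (-0.67, SE 0.11). The 2 libraries of each group lay close together for these 3 genes, and the distance between groups was several times that within them. These genes were picked for a large change without overlap, so that distance is not a finding.

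Fgf3, a fibroblast growth factor, read 11.96 and 13.3 RPKM with E2 kept and 6.48 and 7.74 in 24 h cells (log2 fold change -0.75, SE 0.11, adjusted p = 0.314 by limma with BH). Myl4, a myosin light chain, read 28.3 and 22.9, then 16.3 and 14.8 (-0.68). Dntt, the terminal transferase that adds bases at antigen receptor joints, read 11.5 and 7.91, then 6.14 and 5.23 (-0.66). Ccl3, a chemokine, read 9.64 and 10.1, then 6.41 and 6.38 (-0.55). The rest of the 12 lowest were Mycn, H2-Ob, a modulator of peptide loading on MHC class II (-0.54), Gfi1b, and the receptors Nrp1 (-0.53) and Gfra1 (-0.52). Gfra1, a co-receptor for glial cell line-derived factors, read 10.8 RPKM in both untreated libraries and 7.18 and 7.26 in the 24 h group.

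**Figure D3:**
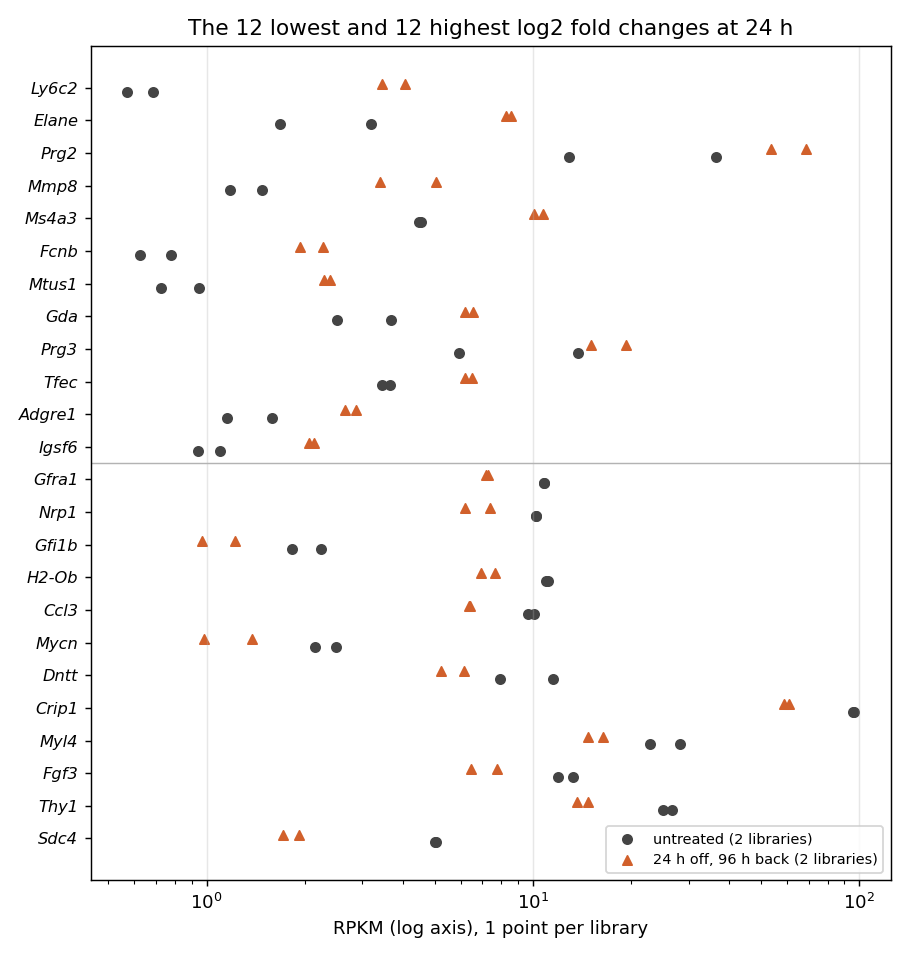
RPKM on a log axis for the 12 coding genes with the highest (top) and lowest (bottom) log2 fold change, with 1 point per library, dots for untreated and triangles for the 24 h group. The highest genes are mostly under 10 RPKM, Prg2 and Prg3 show a wide gap between their untreated dots, and Crip1 at 95.9 and 96.5 against 59.0 and 61.0 RPKM shows the tightest pairs among the abundant genes.

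The sequences before 4 of these genes are shown to set the regulatory letters of the high and low ends beside the values: Ly6c2 and Ms4a3 from the highest, Sdc4 and Crip1 from the lowest. Each is the 250 bases before the RefSeq gene start, on the gene's strand in GRCm38.p6. Ly6c2 is at chr15:75111972-75112221 (minus strand), Ms4a3 at chr19:11640852-11641101 (minus), Sdc4 at chr2:164443189-164443438 (minus) and Crip1 at chr12:113151762-113152011 (plus). Capitals mark letters that match 1 of 5 motifs, searched on both strands: C/EBP as TTNNGNAA, PU.1 as GAGGAAGT, RUNX as TGTGGT, Hox-Pbx as TGATTNAT and the palindromic estrogen response element with any 3 bases in its middle. C/EBP factors and PU.1 are central regulators of myeloid genes.
Ly6c2: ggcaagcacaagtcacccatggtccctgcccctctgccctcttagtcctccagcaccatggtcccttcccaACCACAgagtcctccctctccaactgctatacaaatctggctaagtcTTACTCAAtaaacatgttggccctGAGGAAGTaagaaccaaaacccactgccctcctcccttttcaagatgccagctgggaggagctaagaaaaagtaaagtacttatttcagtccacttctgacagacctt
Ms4a3: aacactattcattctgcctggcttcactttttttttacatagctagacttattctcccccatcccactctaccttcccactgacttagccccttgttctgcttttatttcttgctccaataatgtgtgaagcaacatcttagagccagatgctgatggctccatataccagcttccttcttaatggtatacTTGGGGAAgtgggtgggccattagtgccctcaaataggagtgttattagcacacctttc
Sdc4: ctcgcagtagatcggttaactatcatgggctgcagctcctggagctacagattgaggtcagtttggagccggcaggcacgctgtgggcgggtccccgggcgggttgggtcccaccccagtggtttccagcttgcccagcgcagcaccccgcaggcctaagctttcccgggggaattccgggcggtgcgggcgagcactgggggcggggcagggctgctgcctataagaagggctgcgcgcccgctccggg
Crip1: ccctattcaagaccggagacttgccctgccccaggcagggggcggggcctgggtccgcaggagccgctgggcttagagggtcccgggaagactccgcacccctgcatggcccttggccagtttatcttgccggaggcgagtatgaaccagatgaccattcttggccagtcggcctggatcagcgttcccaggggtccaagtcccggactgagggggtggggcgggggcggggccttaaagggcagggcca
Matches in the window shown for Ly6c2 were to RUNX at -179, C/EBP at -132 and PU.1 at -108 from the start, and that for Ms4a3 was to C/EBP at -59, none overlapping another. The windows of Sdc4 and Crip1 held no match, which says only that these letters are not there.

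The search ran over 250 bases before to 50 after the start. RefSeq held a promoter for 9 of the 12 highest genes and for 10 of the 12 lowest, counting only those near the start of the transcript used. The C/EBP letters occurred in 8 of 9 and in 3 of 10, against 40.7% of 27025 promoters. PU.1 letters occurred in 3 of 9 and 0 of 10 (3.28% of all) and RUNX letters in 3 of 9 and 1 of 10 (16.9%). Hox-Pbx letters (3.36%) and the estrogen response element (0.0666%) occurred in none of the 19. A match is a description of letters, not a site, and the genes were picked for their values, so no test was made.

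The gene bodies lie in GRCm38 (GENCODE M21) at chromosome 15, 75108158 to 75111970 for Ly6c2, chromosome 10, 79886247 to 79888215 for Elane, chromosome 19, 11629496 to 11640851 for Ms4a3, chromosome 2, 164424247 to 164443887 for Sdc4, chromosome 9, 44043384 to 44048579 for Thy1 and chromosome 12, 113146316 to 113153879 for Crip1. The RPKM is that of the exons of 1 transcript per gene. Sdc4 had 2 transcripts listed with the same lean (-1.12 and -1.10) and Ms4a3 had 3 (0.96 to 1.05).

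Some of these genes were called where the 120 h libraries, the most variable, had less or no weight. limma's BH adjusted p was under 0.05 for 3 genes without the 120 h group (0.0231%), 1 higher (Ly6c2; 0.00769%) and 2 lower (Crip1 and Sdc4; 0.0154%). It was under 0.05 for 4 in a fit on the 2 groups alone (0.0308%), Ly6c2 and Ms4a3 higher (0.0154%) and Crip1 and Sdc4 lower (0.0154%). With a weight per library, which gave untreated libraries 2.585 and 120 h libraries 0.186, 34 genes passed (0.261%), 11 higher (0.0846%) and 23 lower (0.177%). The 11 were Ly6c2, Elane, Mmp8, Fcnb, Mtus1, Gda, Tfec, Adgre1, Tlr4, Ighm and the RNA gene Gm27747. Tlr4, the receptor for bacterial lipopolysaccharide, read 1.09 and 1.09 RPKM in untreated cells, against 2.25 and 2.10 in 24 h cells (log2 fold change 0.60). Ighm, the constant region of the IgM heavy chain, had a log2 fold change of 0.75. Among the 23 lower were Sdc4, Thy1, Fgf3, Myl4, Crip1, Mycn, Ccl3 and Gfi1b, and with them Inhbb, an activin subunit (-0.58), Jag2, a Notch ligand (-0.50), Tmem176a (-0.49), Sardh, sarcosine dehydrogenase (-0.47), Prrg4 (-0.48), Gna14, a G protein subunit (-0.46), Azin2 (-0.40) and Lpcat2 (-0.33). Of the 34, 27 were coding. All 34 had no overlap between groups (43.9% of all genes had none), which nearly follows from a call on these same libraries and is not a finding.

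The levels of 5 of these genes are given for every group. Ly6c2 stood at 0.627 ± 0.0792 RPKM in untreated, 3.75 ± 0.424 in 24 h, 31.7 ± 8.34 in 40 h, 588 ± 28.5 in 72 h and 534 ± 147 in 120 h cells (mean ± SD, n = 2 libraries in each group here and below). Elane stood at 2.43 ± 1.06, 8.42 ± 0.238, 41.1 ± 5.03, 278 ± 22.8 and 63.1 ± 43.7 in the same order. Sdc4 stood at 5.04 ± 0.0205, 1.82 ± 0.142, 0.760 ± 0.200, 0.0360 ± 0.00849 and 2.19 ± 0.883, so its 120 h mean was above its 24 h mean. Thy1 stood at 25.8 ± 1.21, 14.2 ± 0.782, 5.71 ± 1.64, 0.114 ± 0.0134 and 0.348 ± 0.404. For these 4 genes the 24 h mean lay between those of the untreated and the 40 h group, and the 72 h mean was the farthest from untreated. Ccl3 had another order: it stood at 9.87 ± 0.325 in untreated, 6.40 ± 0.0170 in 24 h, 6.49 ± 0.336 in 40 h, 42.2 ± 7.86 in 72 h and 139.6 ± 0.102 RPKM in 120 h cells. The 24 h and 40 h levels of Ccl3 did not differ beyond the spread of the 40 h libraries. E2 was back for different times in these groups, so time without and time with E2 cannot be told apart.

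**Figure D4:**
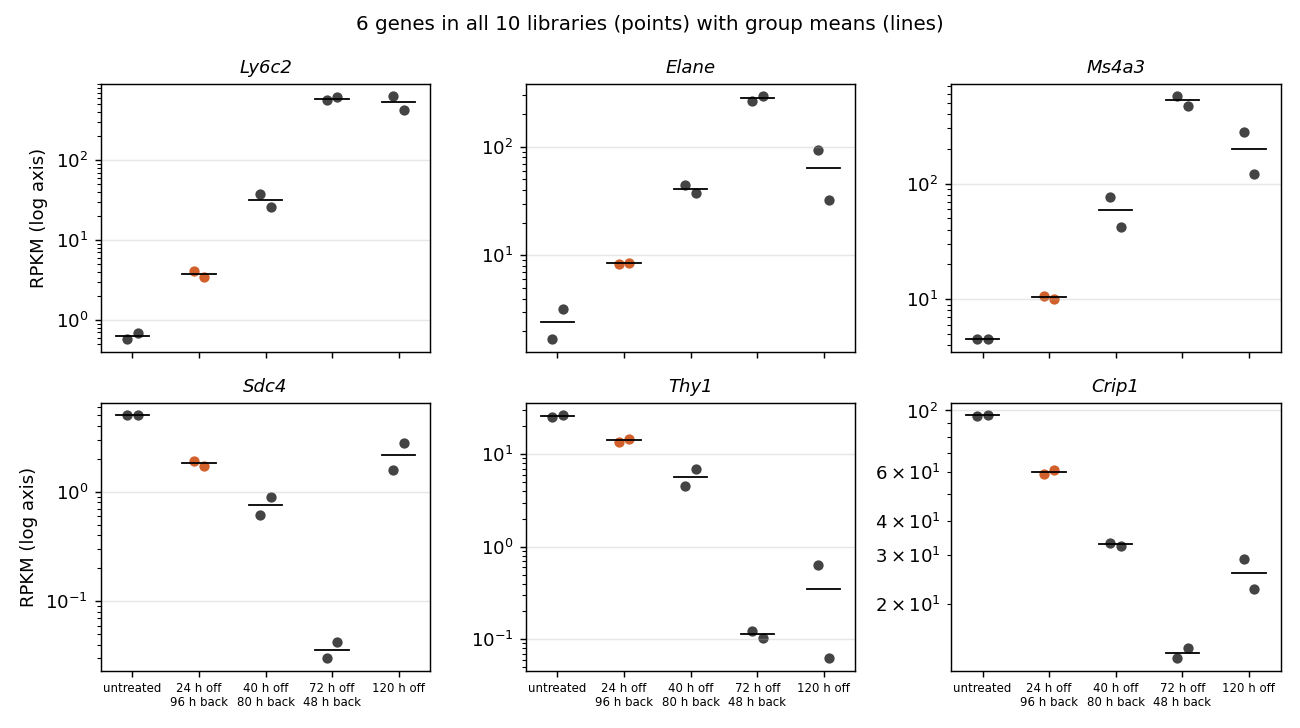
RPKM on log axes in all 10 libraries for 3 of the highest and 3 of the lowest genes, with points for libraries, short lines for group means and the 24 h group in orange. In each panel the 24 h libraries lie between the untreated and the 40 h libraries; Ly6c2 has means of 0.627, 3.75 and 31.7 RPKM in that order and Thy1 has 25.8, 14.2 and 5.71.

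Gene lists were described by their counts and medians, since no member of any of the 24 lists was called. The lymphoid list had the lowest median, -0.23 over 14 tested of 21 genes. All 14 had log2 fold changes below 0, and in 11 both 24 h libraries lay below both untreated ones (27.1% of all genes did). In the counts of members above or below untreated that follow, as in this one, both libraries of one group lie beyond both of the other, and the shares over all 13004 genes are 16.9% above and 27.1% below. Rag1, a subunit of the recombinase of antigen receptor genes, read 5.74 and 3.52 RPKM in untreated cells, then 3.02 and 2.69 in 24 h cells, while its partner Rag2 read 30.5 and 28.7, then 29.5 and 29.2. Ebf1, a B cell factor, read 23.7 and 24.0, then 18.7 and 20.8. Igll1, a surrogate light chain, was abundant and overlapped, at 163 and 141, then 130 and 148. Defining T cell genes were near 0 in all 4 libraries, with Cd3e at 0 to 0.024 RPKM and Cd3g at 0 to 0.011.

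Primary granule genes were uneven. Of 17 tested, 6 had both 24 h libraries above untreated and 4 below, with a median of 0.02 and a mean of 0.22, where 16.9% of all genes lay above and 27.1% below. The list's most abundant members did not share the direction of Elane, Ms4a3 and Fcnb: Mpo, myeloperoxidase, read 2042 and 2433 RPKM with E2 kept and 1815 and 1828 in 24 h cells, and Ctsg, cathepsin G, read 1617 and 1692, then 1593 and 1597. Secondary granule genes (23 tested, median 0.00) had 2 above and 5 below, and Ltf, lactoferrin, stayed between 0.143 and 0.232 RPKM in the 4 libraries. Mature neutrophil genes (24 tested, median 0.02) had 8 above and 4 below. Many members of these 2 lists, and some of lists described below, read under 1 RPKM in all 4 libraries. They passed the filter only through groups with longer withdrawal. Camp, a secondary granule gene, read 0.065 and 0.028, then 0.132 and 0.164 RPKM, and 668 and 509 in 120 h cells. The log2(RPKM + 1) scale holds such changes near 0, so these medians and counts say little about them. S100a8 and S100a9, the subunits of calprotectin, which are among the most abundant RNAs of mature neutrophils, read 0.749 and 0.318, then 0.433 and 0.852, and 0.848 and 0.262, then 1.21 and 1.15 RPKM.

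Monocyte and macrophage genes (24 tested of 27, median 0.05) had 11 members with both 24 h libraries above untreated and 3 below (16.9% and 27.1% of all genes). Beside Ly6c2 and Adgre1, the higher ones included Ms4a6c, at 1.37 and 1.09, then 2.45 and 2.06 RPKM (0.55). Csf1r, the receptor for macrophage colony-stimulating factor, read 1.61 and 1.70, then 1.78 and 1.82. Ccr2, the chemokine receptor of inflammatory monocytes, went the other way, at 113 and 111 RPKM in untreated cells, against 84.1 and 88.2 in 24 h cells (-0.37, SE 0.15). The list's summed RPKM was 574 and 601 in untreated and 586 and 574 in 24 h libraries, so its total overlapped between groups. Most of that total came from F13a1 (215 and 234 RPKM in untreated cells), Emb (200 and 213) and Ccr2, so it says little about the low members.

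Markers of other lineages were mostly low. Eosinophil, basophil and mast cell genes (14 tested of 23, median 0.07) had 7 above and 1 below (16.9% and 27.1% of all genes), with summed RPKM of 216 and 252 in untreated and 263 and 288 in 24 h libraries. Besides Prg2 and Prg3, Mcpt8, a basophil protease, read 45.4 and 52.4, then 33.5 and 43.0 (-0.36), while Epx, eosinophil peroxidase, was at 0.015 to 0.098 RPKM and Ear2 was listed at 0 in both untreated libraries and at 0.047 and 0.076 in the 24 h ones. Erythroid and megakaryocyte genes (7 tested of 18, median -0.04) had 1 above and 2 below, and the globin gene Hba-a1 was at 0.073 to 0.172 RPKM. Dendritic cell and MHC class II genes (9 tested of 16, median -0.06) had 0 above and 3 below. The part of these cells in the values of single genes was not tested.

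Among transcription factors of myeloid differentiation (30 tested, median -0.05), 4 had both 24 h libraries above untreated and 9 below, where 16.9% of all genes lay above and 27.1% below. Cebpe, the C/EBP factor of the secondary granule stage, read 6.80 and 7.60 RPKM in untreated cells, then 9.64 and 9.51 in 24 h cells (log2 fold change 0.37, SE 0.19). Cebpa, its counterpart in progenitors, read 55.0 and 56.2, then 54.4 and 48.8, and Gfi1, a repressor that favours granulocytes, read 52.2 and 55.4, then 54.6 and 57.5. Irf5 (-0.28) and Irf7 (-0.37), factors of the interferon response, were lower in both 24 h libraries. Interferon stimulated genes as a list (28 tested, median -0.07) had 15 below and 1 above, with Ifi47, a GTPase, at 9.45 and 8.80, then 6.55 and 7.36 RPKM (-0.35). Inflammatory cytokine and signalling genes (21 tested, median -0.06) had 12 below and 4 above. Phagocyte adhesion and Fc receptor genes (27 tested) had 8 below and 7 above, with a median of -0.01 and a mean of 0.02.

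Genes of growth and metabolism showed small, even differences. Ribosome biogenesis and Myc target genes (28 tested, median 0.08) all had log2 fold changes above 0, from 0.01 to 0.27, and 15 had both 24 h libraries above untreated (16.9% of all genes did). Odc1, ornithine decarboxylase, read 102 and 106 RPKM with E2 kept and 120 and 132 in 24 h cells, and Npm1, nucleophosmin, read 1253 and 1270, then 1320 and 1349. Cholesterol synthesis genes (24 tested, median 0.14) had 19 above and 1 below. Msmo1, a sterol oxidase, read 51.0 and 51.9, then 63.0 and 64.9 (0.31, SE 0.15), and Nsdhl, a sterol dehydrogenase, 25.1 and 25.2, then 30.4 and 29.7 (0.25). Srebf2, the factor that drives the pathway, was the 1 below, at 72.9 and 75.0, then 71.0 and 69.9. S phase genes (34 tested, median 0.02) had 9 above and 2 below, and G2 and M phase genes (32 tested, median -0.05) 0 above and 12 below. Top2a, a topoisomerase of dividing cells, read 142 and 138, then 134 and 136 RPKM.

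Mitochondrially encoded genes had the highest list median, 0.29 over 11 tested of 13, and 9 had both 24 h libraries above untreated and 1 below (16.9% and 27.1% of all genes). The 1 below was mt-Co3, at 0.967 and 0.955, then 0.946 and 0.573 RPKM, and mt-Atp6 had a log2 fold change of -0.12 with overlap. The untested mt-Co2 and mt-Atp8 read under 1 RPKM in the 4 libraries compared, while mt-Co1 read 2193 and 2065 in untreated cells. How reads were counted is not given, so these low values are uncertain as levels of the genes. In untreated cells mt-Nd6 read 514 and 525, close to mt-Nd5 at 519 and 509, so the pair may share reads. mt-Nd4, a subunit of complex I, read 582 and 492 RPKM in untreated cells, against 784 and 616 in 24 h cells (log2 fold change 0.38, SE 0.20). The list's summed RPKM was 6891 and 6297 in untreated and 9110 and 7304 in 24 h libraries, so the first 24 h library stood apart from the second by more than the untreated libraries from each other. Without that library the list's median was 0.13, and without the second 24 h library it was 0.45. Secreted, matrix and cytoskeletal genes (21 tested, median -0.07, mean -0.24) had 10 below and 2 above, with Sdc4, Fgf3, Myl4 and Crip1 at the lower end and the abundant members Lgals1 (673 and 721, then 682 and 702 RPKM) and Vim (373 and 341, then 393 and 350) overlapping. Estrogen response genes (9 tested of 24, median -0.04), apoptosis regulators (22 tested, median -0.03) and stress and RNA quality genes (19 tested, median 0.04) had 1, 2 and 5 members above and 1, 9 and 4 below.

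**Figure D5:**
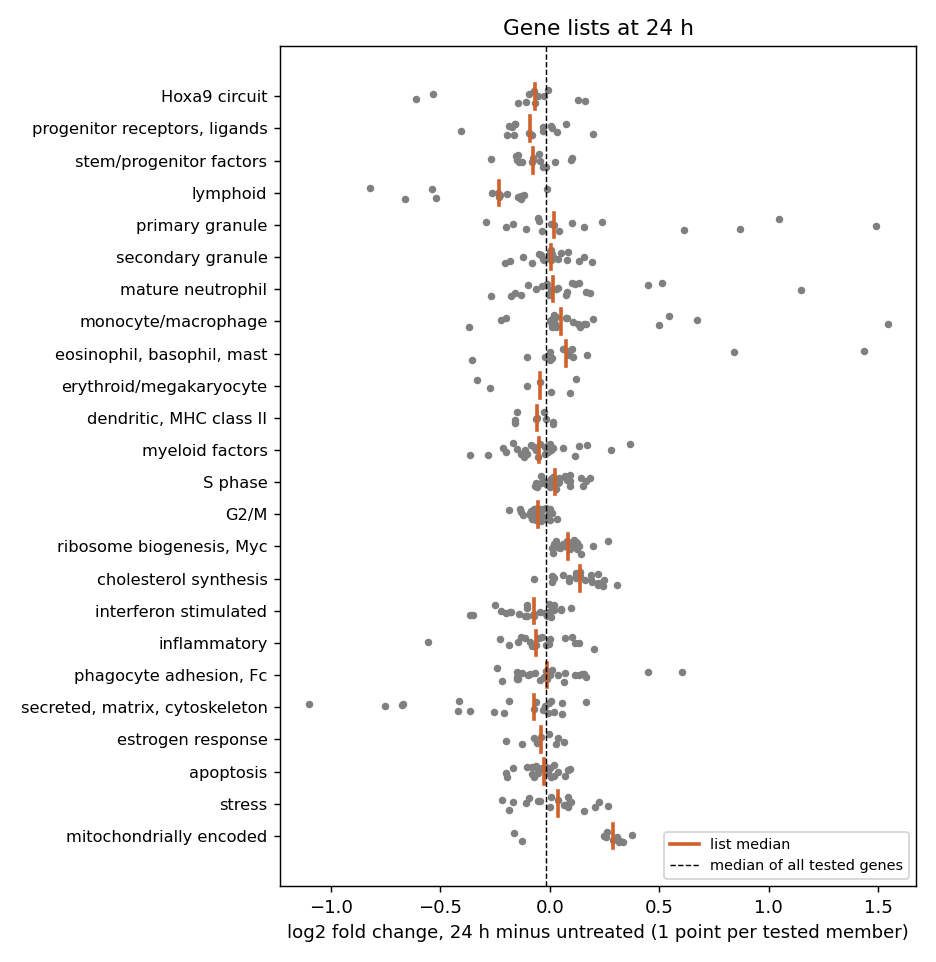
Each point is the log2 fold change of 1 tested member of a gene list, 24 h minus untreated; orange bars are list medians and the dashed line is the median of all 13004 genes (-0.02). The lymphoid points lie below 0 and the ribosome biogenesis points above it, and single points far to the right belong to Ly6c2, Elane, Prg2, Mmp8 and Ms4a3, with Sdc4 far to the left.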

How the data were processed

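The authors deposited RPKM (reads scaled to transcript length and library reads) per Ensembl transcript, 1 table of 79535 transcripts per library, per the file headers. The aligner was STAR and the build GRCm38, as the submitters' processing notes say; how reads were counted, by which annotation release and strand, and how tables were filtered is not given in the sources used, so overlapping, antisense and near-identical genes are uncertain as single genes. Identifiers without version were matched to GENCODE M21 (77720 matched, 97.7%; the rest held 2.64 to 3.24% of RPKM). Each of 26227 genes was represented by 1 transcript chosen from the annotation (coding, principal, longest). RPKM times length gave whole reads (tolerance 0.02) in 100% of 759 to 1008 values tested per library. Replicates differed by more than counting noise (median ratio 11.6 in untreated, 16.2 in the 24 h group).

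Tests used limma 3.58.1 in R 4.3.3 on log2(RPKM + 1), with a mean-variance trend, group as the only term, all 10 libraries in 1 fit (5 residual and 3.04 prior degrees of freedom), 2-sided, called at a BH adjusted p under 0.05. Named were Hoxa9, Meis1, Esr1, Kit and Lyz2; the 12 highest and 12 lowest coding genes whose groups did not overlap and reached a mean RPKM of 2 in one of them; genes called without the 120 h group, on 2 groups or with array weights; and per list up to 3 non-overlapping members with the largest change and the 2 most abundant in untreated cells. Predicted and clone names were left out of the 12 highest and 12 lowest. Other members are named from their lists after their values were seen. The genes, lists and tests were chosen with earlier results of these data known. The fit was tested on simulated data. Alternatives were pseudocount, filter, scaling, transcript choice, samples in the fit, weights, replicate block, voom and leaving out each library. RefSeq promoters came with the GRCm38.p6 table, and proteins were not used here. A few named genes are not reported here.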

Additional observations from a re-analysis of the deposited data

Results flagged for a closer look

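The 24 h and 40 h groups share the untreated reference, and the difference between them was tested directly. limma with BH adjustment called 37 genes in 40 h against 24 h cells, 22 higher (0.169%) and 15 lower (0.115%), and 0 when either 24 h library was left out. The 10 of them named in the report had these log2 differences of 40 h minus 24 h. Ly6c2 (2.76, adjusted p = 0.00669), Gda (1.84), Igsf6 (1.57), Mtus1 (1.55), Tlr4 (1.18) and Adgre1 (0.89) were higher in 40 h cells, in which Ly6c2 read 37.6 and 25.8 RPKM against 4.05 and 3.45 at 24 h. Fgf3 (-1.10, adjusted p = 0.0142), Myl4 (-0.91), Crip1 (-0.85) and Gfra1 (-0.81) were lower, and Fgf3 read 2.58 and 2.98 RPKM against 6.48 and 7.74. Genes called here whose 24 h values were near untreated included C3, complement component 3, at 0.293 and 0.227 RPKM in untreated, 0.283 and 0.366 in 24 h and 1.28 and 1.17 in 40 h cells. Clec12a, an inhibitory lectin of myeloid cells, read 8.42 and 8.24, then 6.94 and 6.54 at 24 h and 14.9 and 11.9 at 40 h, so the 24 h group lay below untreated and the 40 h group above. C3 and Clec12a were chosen after their values were seen.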

How the results depend on the processing

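Over 20 alternatives none of the 135 named genes reversed while called, and 35 passed the threshold in at least 1. The called count of 0 at 24 h became 2 with a pseudocount of 0.1 (Ly6c2 and Gm23394), 3 with no filter (the small RNA genes Gm26324, Mir1941 and Mir7656), 3 without the 120 h group, 4 on 2 groups and 34 with array weights, 0 to 3 leaving out 1 library (3 without either 120 h library), and stayed 0 with both scalings, the most abundant transcript and voom. Genes with an unadjusted p under 0.05 were 365, and 977 with no filter, 798 without the 120 h group, 1406 on 2 groups, 1548 with array weights and 165 to 800 leaving out 1 library. Genes whose libraries did not overlap were 5715, and 8631 to 9712 with 1 untreated or 24 h library left out, since fewer libraries overlap less. The 37 calls of 40 h against 24 h became 238 without the 120 h group, 160 on 2 groups, 493 with array weights and 0 to 237 leaving out 1 library. The replicate block left 0 calls at 24 h (471 genes at an unadjusted p under 0.05) and 43 calls for 40 h against 24 h. The labels do not say what a replicate number marks. Deviations of same-numbered libraries correlated positively in all 10 group pairs, at 0.034 to 0.639 (0.25 for untreated with 24 h), over 0.1 in 8 and under it for untreated with 40 h and with 72 h. Whether the numbers pair the libraries is therefore not known, and both fits are given. Of 480 list medians 51 moved. The mature neutrophil, primary and secondary granule, S phase and estrogen response medians, all within 0.05 of 0, took either sign when single libraries were left out. The cause of these shifts was not tested. Each group had 2 libraries, and in genes with enough reads to compare these differed by more than counting noise. Whether more libraries or more reads would add precision was not tested.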

Other observations

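Outside the coding genes, small nucleolar RNAs guide the modification of ribosomal RNA, and they were described as a class with no test. Of 136 tested, 52 (38.2%) had both 24 h libraries above both untreated ones and 6 below, with a median log2 fold change of 0.20, while 16.4% of 10756 coding genes lay above and 28.5% below. Their median RPKM was 1.19 and 1.24 in untreated and 1.39 and 1.84 in 24 h libraries, so the 24 h libraries differed more than the untreated ones. These levels are near the filter of 1 RPKM, while coding genes had medians of 11.1 and 11.2 in untreated cells. The class had a median log2 fold change of 0.74 in the 72 h group, so members may have passed the filter through that group. Antisense genes (445 tested) had 52 above and 139 below.

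Between the untreated libraries, 16 genes differed at least 2-fold, 12 of them lower in replicate 2. These included the small RNA loci Mir6236 (730 and 208 RPKM, and 810 and 658 in 24 h cells), Gm23935 (624 and 77.1, then 721 and 254) and Gm24270 (115 and 12.1, then 184 and 45.0), and Lars2. Their log2 fold changes at 24 h were 0.90, 0.96, 1.24 and 0.95, each with a BH adjusted p of 1 by limma. These loci were chosen after their values were seen.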
